A study of Homo sapiens with 3 samples.

Results

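The genes described here encode 10 secreted cytokines that keratinocytes make or can be induced to make: the colony-stimulating factors CSF1, CSF2 and CSF3, the interleukin 20 subfamily members IL19, IL20 and IL24, the epithelial cytokine gene TSLP, the interleukin 12 family subunits IL12A and IL23A, and IL15. They were found by their gene names in the annotation of the deposited array files, and all 10 were present, with 24 transcripts, among 23595 named genes. RNA came from HaCaT, an established human skin keratinocyte line that became immortal spontaneously. The cells were grown without added agent (control), with 1 µM all-trans retinoic acid (ATRA, the active form of vitamin A), or with both ATRA and NIC (nicotinamide, a vitamin B3 amide), for 36 h. Each condition was read by 1 NimbleGen array labelled with Cy3. The nicotinamide dose was not given in the sources used here, and no array held cells given nicotinamide alone. There were therefore no replicates and no test, and every difference below describes these 3 arrays. A nicotinamide effect can be read only against the ATRA array.

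As background, colony-stimulating factors drive the production and survival of myeloid cells: CSF1 acts on macrophages, CSF2 on granulocytes, macrophages and dendritic cells, and CSF3 on neutrophils. Interleukin 23 is a dimer of the IL23A product with the IL12B product, interleukin 12 a dimer of the IL12A product with that same subunit, and both direct helper T cells. Interleukin 15 sustains natural killer and memory T cells, TSLP primes dendritic cells for type 2 immunity, and interleukins 19, 20 and 24 act back on keratinocytes and are raised in psoriatic skin.

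IL23A stood highest on the ATRA array and CSF1 on the ATRA+NIC array. IL23A was 3.61-fold higher with ATRA than in the control and 3.10-fold lower with ATRA+NIC than with ATRA, or by log2 differences of 1.11 and -1.01 with an offset of 100 before logs. CSF1 was 1.67-fold higher with ATRA and 2.19-fold higher with ATRA+NIC than in the control. CSF3, read by a single dim transcript, was 2.37-fold higher with ATRA and 2.38-fold higher with ATRA+NIC. CSF2 differed by 1.28-fold or less in each comparison. IL19, IL20 and IL24 did not reach an intensity of 50 on any array.

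The unit was the deposited intensity. The 2508 random probes, which match no human transcript, read between 18.4 and 19.6, and 50 was the lowest value in the authors' own value table. A gene's level was the mean log2 intensity of its transcripts, and a gene entered counts when its level was, on 1 array or more, no lower than 7.95 (intensity 246.5), the median over genes and arrays. The members CSF1, CSF2 and IL23A did so, IL23A only through its level on the ATRA array, and 7 members stayed below. Of the 24 transcripts, 12 reached 50 on all arrays, 3 on some, and 9 on none. Between 73.6% and 73.8% of all transcripts reached 50 on an array. Transcripts of 1 gene gave the only measure of scatter: their differences had a pooled SD of 0.31 on the log2 scale for ATRA against control among genes above the filter and 0.60 among genes below it. The values were 0.30 and 0.62 for ATRA+NIC against ATRA, and 0.24 and 0.57 for ATRA+NIC against control. This scatter can hold differences between splice forms as well as technical error, and says nothing of the spread between cultures.

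**Figure D1:**
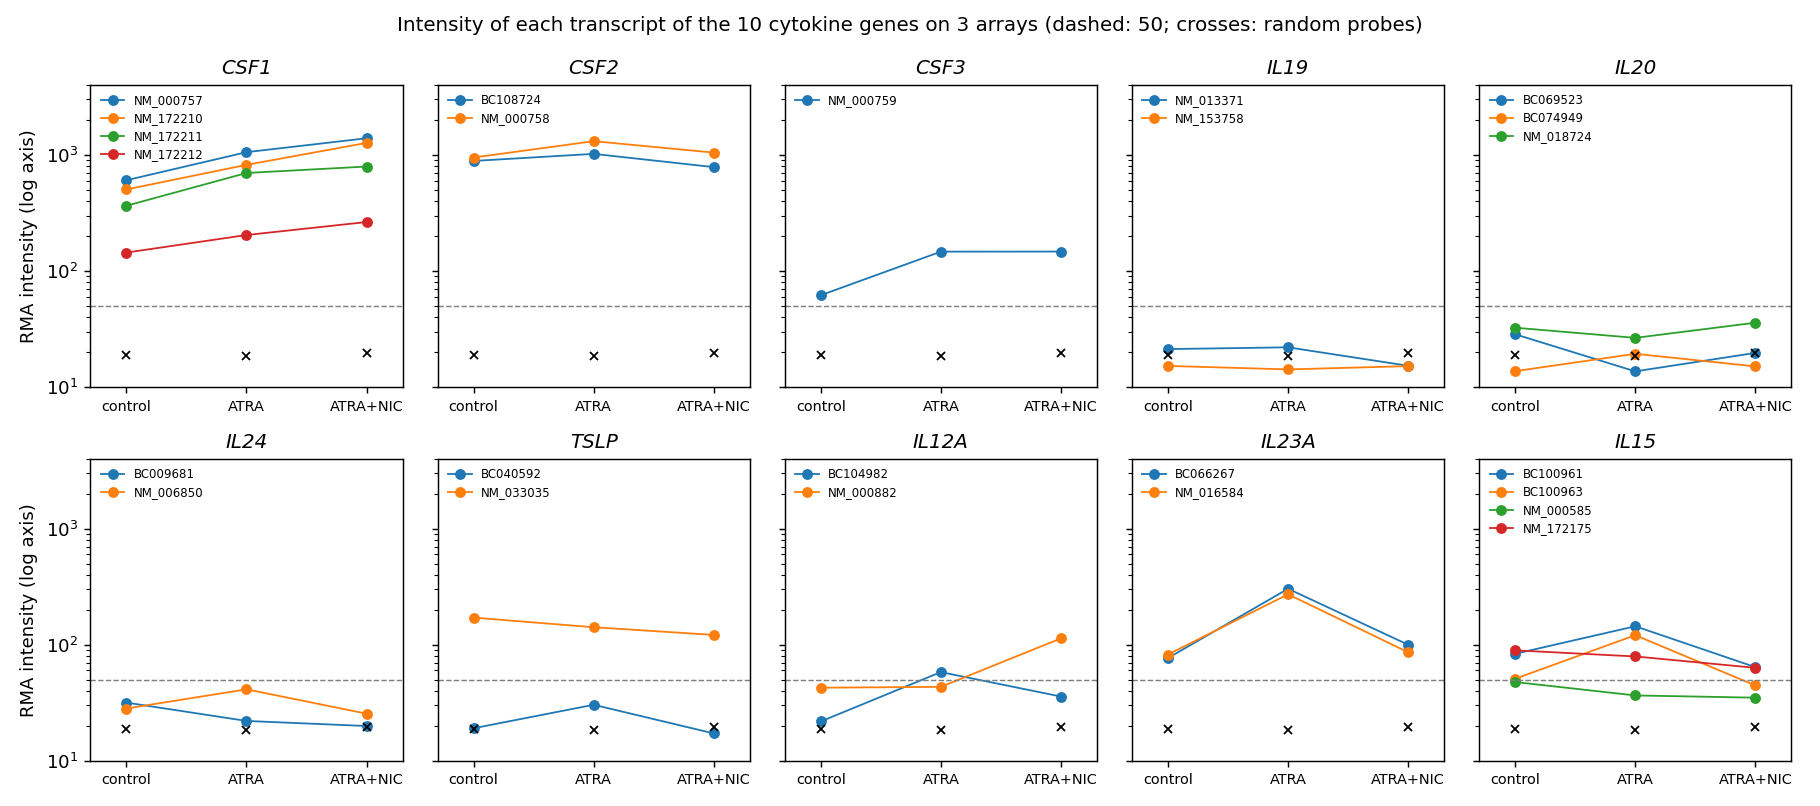
Deposited intensity (log axis) of each transcript of the 10 genes in the control, with ATRA and with ATRA+NIC, 1 array each; lines join the values of a transcript, the dashed line marks 50 and crosses mark the random probes. Both IL23A transcripts peak on the ATRA array, all 4 CSF1 transcripts are highest on the ATRA+NIC array, and IL19, IL20 and IL24 stay under 50.

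With ATRA against control, 1 member above the filter was at least 2-fold higher, IL23A, and 0 were lower, where the shares among 12467 genes were 3.83% for higher and 2.06% for lower. Since IL23A entered the count through its ATRA level, that count is a description only. Over all 10 members without the filter, IL23A and CSF3 were at least 2-fold higher and 0 lower, against 4.23% and 3.22% of 23595 genes. The 10 members had a median difference of 0.35, and all genes a median of -0.03. As measured, 8 of the 10 members were higher and 2 lower, where 47.7% of all genes were higher and 52.3% lower. With values under 50 set to 50, 6 members, CSF1, CSF2, CSF3, IL12A, IL23A and IL15, were higher on the ATRA array, IL12A by only 0.11. In that setting TSLP was lower, and IL19, IL20 and IL24 had no difference. The share over all genes was not taken in that setting, so its count is a description only.

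With ATRA+NIC against ATRA, IL23A was the 1 member at least 2-fold lower and 0 members were higher, where 3.74% of genes above the filter were lower and 1.35% higher. Without the filter IL23A was still the 1 lower member, against 4.12% of all genes, and 0 were higher, against 3.09%. The member median was -0.28 and that of all genes 0.04. With ATRA+NIC against control, CSF1 was the 1 member above the filter at least 2-fold higher and 0 were lower, against 1.03% and 0.971% of genes. Without the filter CSF1, CSF3 and IL12A were at least 2-fold higher, against 2.32% of all genes, and 0 were lower, against 2.08%. IL12A, whose control level was under 50, was 1.51-fold higher with such values set to 50, so its call was lost. The member median was -0.05. The 3 comparisons share arrays, so a high value on the ATRA array enters the first and the second with opposite signs.

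**Figure D2:**
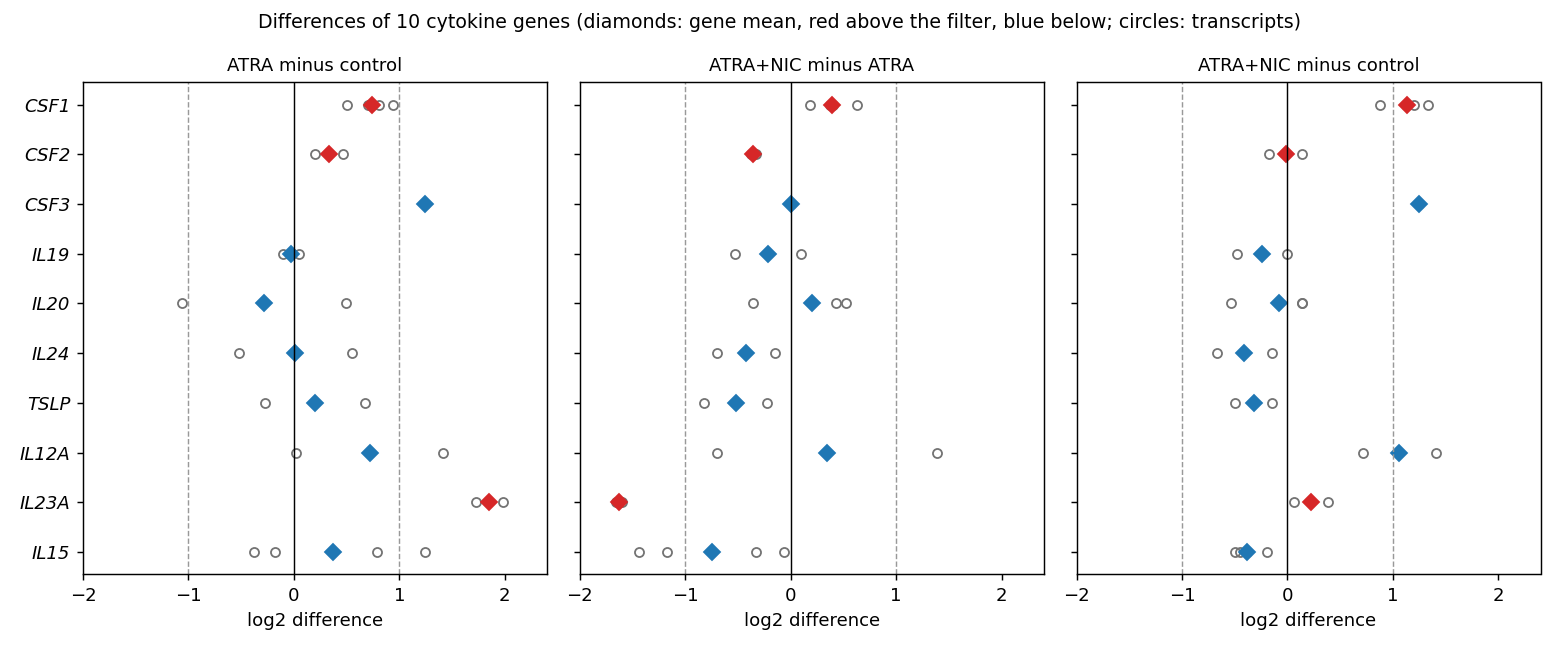
Log2 difference of each gene in the 3 comparisons; diamonds are gene means (red for genes above the filter, blue for those below), circles are single transcripts, and dashed lines mark 2-fold. The IL23A transcripts lie close together at 1.72 and 1.98 for ATRA against control, while those of IL12A and IL15 lie far apart.

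CSF1 encodes macrophage colony-stimulating factor, whose splice forms give secreted and membrane-bound proteins. Its 4 transcripts lie on chromosome 1 of the files' build, hg18, from 110254979 to 110273878. NM_000757 had intensities of 604.2 in the control, 1054 with ATRA and 1390 with ATRA+NIC. NM_172210 had 503.4, 819.9 and 1268. NM_172211 had 364.4, 698.1 and 793.2, and NM_172212, the dimmest, had 144.0, 204.0 and 263.9. All 4 transcripts held the same order of arrays, control lowest and ATRA+NIC highest, with folds over the control of 1.42 to 1.92 for ATRA and 1.83 to 2.52 for ATRA+NIC. On the gene level the log2 values were 8.47, 9.21 and 9.61. The difference was 0.74 for ATRA against control (SD over 4 transcripts 0.18), 0.40 for ATRA+NIC against ATRA (SD 0.18) and 1.13 for ATRA+NIC against control (SD 0.19). For the first, 7.02% of genes above the filter had a greater difference, for the second 17.1%, and for the third 0.722%. Adding an offset of 100 before taking logs brought the third difference under 2-fold.

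CSF2 encodes granulocyte-macrophage colony-stimulating factor, a classical product of activated keratinocytes, and lies on hg18 chromosome 5 from 131437383 to 131439762. BC108724 had intensities of 886.1 in the control, 1020 with ATRA and 784.1 with ATRA+NIC, and NM_000758 had 948.4, 1312 and 1046. Both transcripts were highest on the ATRA array, by little. The gene level was 9.84, 10.18 and 9.82, with differences of 0.34, -0.35 and -0.02 in the 3 comparisons. Greater differences than that of CSF2 for ATRA against control were held by 18.6% of genes above the filter, and lower ones than that for ATRA+NIC against ATRA by 17.5%. The first difference was close to the 0.31 SD of transcripts of 1 gene.

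CSF3 encodes granulocyte colony-stimulating factor. Its single transcript, NM_000759 on hg18 chromosome 17 from 35425213 to 35427592, had intensities of 61.8 in the control, 146.7 with ATRA and 146.9 with ATRA+NIC. The control value lay just above 50 and both treated arrays stood at the same level. The difference was 1.25 for each treated array against the control and 0.002 between them. With no second transcript and a level below the filter, the 0.60 SD of dim genes is the nearest measure of its scatter. An offset of 100 lowered the differences to 0.61. Among all genes, 2.42% had a greater difference for ATRA against control.

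IL23A encodes the subunit particular to interleukin 23, and its transcripts lie on hg18 chromosome 12 from 55018929 to 55020461. BC066267 had intensities of 76.7 in the control, 303.3 with ATRA and 100.0 with ATRA+NIC. NM_016584 had 82.4, 271.9 and 86.1. Both transcripts were high on the ATRA array only, and their control and ATRA+NIC values lay close together. Their folds were 3.95 and 3.30 for ATRA against control and 3.03 and 3.16 between ATRA and ATRA+NIC. The gene level was 6.31, 8.17 and 6.54. The differences were 1.85 (SD over 2 transcripts 0.18), -1.63 (SD 0.04) and 0.22 (SD 0.23) in the 3 comparisons. A greater difference for ATRA against control was held by 1.05% of genes above the filter, and a lower one for ATRA+NIC against ATRA by 1.34%. As IL23A joined these genes through its ATRA level, the shares over all genes are also given, 0.754% and 1.26%.

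The promoter windows of IL23A, the member that differed most, and of CSF2, which differed little, are shown side by side, from RefSeq on GRCh38.p14, each covering 250 bases before and 50 after the gene start on the plus strand. IL23A lies at chr12:56338634-56338933 and CSF2 at chr5:132073539-132073838. Capitals mark matches to the NF-kappaB consensus and to the AP-1 motif TGANTCA.
IL23A: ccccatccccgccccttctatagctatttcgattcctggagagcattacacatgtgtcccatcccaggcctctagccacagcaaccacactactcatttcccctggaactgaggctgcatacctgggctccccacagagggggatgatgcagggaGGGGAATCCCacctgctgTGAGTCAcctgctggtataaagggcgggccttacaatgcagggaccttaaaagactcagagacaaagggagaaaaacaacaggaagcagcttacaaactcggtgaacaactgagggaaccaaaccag
CSF2: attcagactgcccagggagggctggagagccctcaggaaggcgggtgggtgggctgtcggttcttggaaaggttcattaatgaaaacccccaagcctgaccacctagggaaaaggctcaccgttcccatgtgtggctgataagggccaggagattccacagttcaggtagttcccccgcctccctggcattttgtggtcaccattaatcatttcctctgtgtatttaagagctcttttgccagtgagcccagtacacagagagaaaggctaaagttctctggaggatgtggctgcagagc
The IL23A window held 1 NF-kappaB match, at position -95 from the start, and 1 AP-1 match, at -77, with no overlap between them. The CSF2 window held 0 matches to either. Both strands were searched, together with the retinoid receptor half-site AGGTCA, which had 0 matches in either window. Of 35116 promoter windows of the same length, 7.71% held the AP-1 motif, 11.3% the NF-kappaB consensus, 13.8% the half-site, and 0.615% both of the first kinds. RefSeq windows were matched for 7 members, 11 windows in all, and none for CSF1, CSF3 or IL15. Among the others, an AP-1 match stood in 1 window of IL19, NF-kappaB matches in those of IL12A and of 1 TSLP start, and half-sites at another TSLP start. Such matches are letters in a window and no measure of binding. Only exact matches were counted, so 0 matches in the CSF2 window does not show that variant sites are absent. Whether the motifs bear on the differences between the arrays was not tested.

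Other genes above the filter, 11078 with a symbol that was no locus, clone or reading-frame name, were compared with IL23A. Euclidean distance was taken on the pair of differences, ATRA against control and ATRA+NIC against ATRA, not on levels. The 3 nearest genes were BEST1, which encodes a chloride channel, SERTAD1 and the hyaluronan synthase gene HAS2. BEST1 differed by 1.85 and -1.63, at a distance of 0.0067. SERTAD1, read by 1 transcript, differed by 1.85 and -1.60, at a distance of 0.031. HAS2 differed by 1.84 and -1.68, at a distance of 0.056. With 1 array per condition this likeness rests on 3 values per gene.

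**Figure D3:**
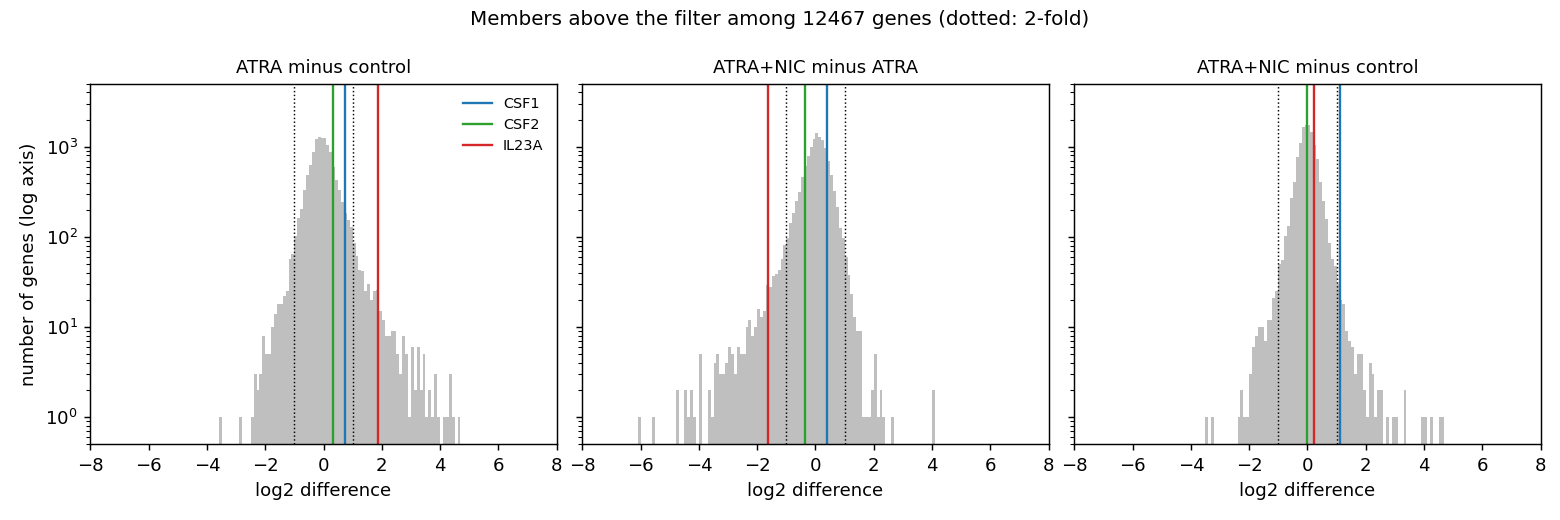
Number of genes (log axis) by log2 difference for 12467 genes above the filter in each comparison, with the 3 members above the filter as coloured lines and 2-fold as dotted lines. IL23A lies in the upper tail for ATRA against control (1.85) and the lower tail for ATRA+NIC against ATRA (-1.63), and CSF1 in the upper tail for ATRA+NIC against control (1.13).

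The transcripts of IL12A, which encodes the interleukin 12 subunit that pairs with the IL12B product, gave no common pattern. On hg18 chromosome 3, BC104982 had intensities of 21.8 in the control, 58.1 with ATRA and 35.8 with ATRA+NIC, and NM_000882 had 42.7, 43.4 and 113.5. The first transcript was above 50 on the ATRA array only and the second on the ATRA+NIC array only. With dim values set to 50, BC104982 was at least 1.16-fold higher with ATRA than in the control, and NM_000882 at least 2.27-fold higher with ATRA+NIC than on either other array. The gene level was 4.93, 5.65 and 5.99, and the differences of the transcripts had an SD of 1.48 for ATRA+NIC against ATRA. The 2.09-fold difference of the gene level between ATRA+NIC and control became 1.51-fold with values under 50 set to 50.

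IL15 had 4 transcripts on hg18 chromosome 4, between 142777203 and 142874062, which did not share a pattern. BC100961 had intensities of 83.6 in the control, 144.2 with ATRA and 64.1 with ATRA+NIC, and BC100963, annotated over the same span from 142859988 to 142873945, had 50.9, 120.8 and 44.6. Both were highest on the ATRA array, by 1.73-fold and 2.37-fold over the control, and lower with ATRA+NIC by 2.25-fold and by at least 2.42-fold. NM_172175 had 89.5, 79.3 and 63.3, and NM_000585 had 47.7, 36.6 and 35.0, under 50 throughout. NM_172175 was thus 1.13-fold lower with ATRA than in the control, against the direction of the first pair, and NM_000585 has no order. The gene level was 6.03, 6.40 and 5.65, and the difference of 0.37 for ATRA against control became -0.28 over the NM transcripts alone. The 3 transcripts that reached 50 were lower with ATRA+NIC than with ATRA. The gene differences were -0.75 for that comparison and -0.38 for ATRA+NIC against control.

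TSLP, whose product is a cytokine of the epithelial barrier, had a transcript above 50 and another near the random probes, both on hg18 chromosome 5. NM_033035 had intensities of 171.1 in the control, 141.5 with ATRA and 121.5 with ATRA+NIC, lowest on the ATRA+NIC array by 1.41-fold against the control. BC040592 had 19.1, 30.4 and 17.2, all under 50. The gene level of 5.84, 6.04 and 5.52 averages the pair, and its difference of 0.20 for ATRA against control had the opposite sign in the brighter transcript, -0.27. The difference of the brighter transcript for ATRA+NIC against control was -0.49, smaller than the 0.57 SD of dim genes.

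IL19, IL20 and IL24 neighbour each other on hg18 chromosome 1, between 205038837 and 205144107. The 2 IL19 transcripts had intensities between 14.2 and 22.0 over the 3 arrays. The 3 IL20 transcripts lay between 13.7 and 35.9, and the 2 of IL24 between 19.9 and 41.3, with the highest value for NM_006850 on the ATRA array. All 21 values of the 7 transcripts were under 50, so no fold is given and their levels have no order.

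Receptor genes for these cytokines were mostly dim. Of 15 receptor genes listed, 14 were measured, and IL20RB is not analysed here. IL7R and IL15RA passed the filter, 3 stayed under 50 on all arrays by gene level, and 0 of those passing were at least 2-fold higher in any comparison. IL15RA, the subunit that presents interleukin 15, had a log2 level of 10.31 in the control, 10.41 with ATRA and 10.76 with ATRA+NIC, the array order used below. IL7R, which pairs with CRLF2 in the TSLP receptor, had 9.86, 9.99 and 8.45, so it was 2.91-fold lower with ATRA+NIC than with ATRA, while CRLF2 had 4.79, 4.50 and 4.60, under 50.

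The signalling subunits of the interleukin 15 receptor stood highest on the ATRA array, below the filter. IL2RB had log2 levels of 5.98, 7.09 and 5.06 and IL2RG had 6.15, 7.93 and 4.78. CSF2RB (6.33, 7.00 and 5.75), CSF3R (6.93, 7.69 and 6.34) and CSF1R (6.44, 6.91 and 5.60), receptor genes of the colony-stimulating factors, had the same order of arrays, and CSF2RA was level at 5.90, 5.87 and 5.81. The ATRA+NIC levels of IL2RB, IL2RG and CSF1R were under 50, and IL2RB and CSF1R were read by 1 transcript each. The receptor genes of the interleukin 20 subfamily ran otherwise, with IL22RA1 at 6.48, 6.23 and 7.54 and IL20RA at 6.41, 5.63 and 6.51. The IL20RA level with ATRA was just under 50. IL12RB1 had 5.44, 5.74 and 6.01, and IL23R (3.81, 4.76 and 4.17) and IL12RB2 (4.65, 4.30 and 4.19) stayed under 50.

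The partner subunit of IL23A and IL12A did not reach 50: IL12B had log2 levels of 4.53, 4.32 and 4.32, under the 5.64 that corresponds to 50. EBI3, which pairs with the IL12A product in interleukin 35, had 5.24, 5.74 and 4.82. Of 20 partner and related ligand genes, 11 stayed under 50 on all arrays by gene level, 5 passed the filter, and 0 of these 5 were 2-fold different in any comparison. IL34, the other ligand of the CSF1 receptor, had 5.79, 5.76 and 5.63. The epithelial cytokine genes IL18 (11.43, 11.32 and 11.19) and IL7 (9.38, 9.67 and 9.33) were bright and differed little, and KITLG, the stem cell factor gene, had 8.68, 9.11 and 9.17. IL33 and IL25, which with TSLP make up the epithelial alarmins of type 2 immunity, were under 50 on all arrays by gene level. IL27, a further interleukin 12 family subunit gene, had 7.14, 7.21 and 8.06, and FLT3LG, the gene of a dendritic cell growth factor, had 10.13, 9.89 and 10.49.

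**Figure D4:**
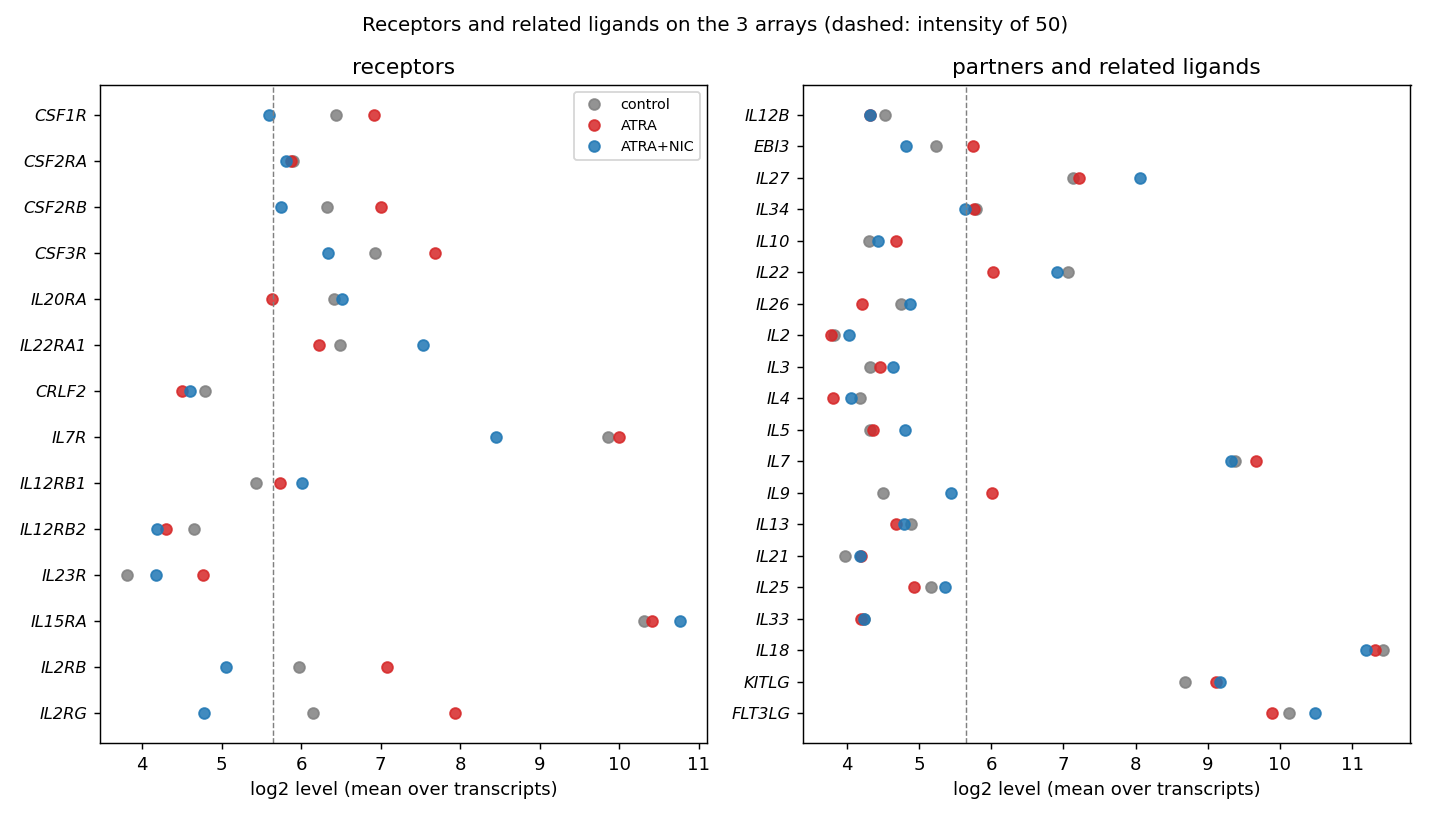
Log2 level of each receptor gene (left) and each partner or related ligand gene (right) on the control (grey), ATRA (red) and ATRA+NIC (blue) arrays; the dashed line marks an intensity of 50. IL2RG and IL2RB are highest with ATRA, IL7R is lowest with ATRA+NIC, and IL12B stays under 50.

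Markers of leukocytes, which make several of these cytokines, mostly moved in the directions of IL23A in the comparisons that hold the ATRA array. The IL15 transcripts BC100961 and BC100963 moved in the same directions there. The IL15 transcript NM_172175 was lower with ATRA than in the control. Of 30 leukocyte markers measured, 24 were higher with ATRA than in the control (median 0.47), where 47.7% of all genes were higher (median -0.03). With ATRA+NIC against ATRA 23 were lower (median -0.81), where 45.7% of all genes were lower (median 0.04). With ATRA+NIC against control 22 were lower (median -0.32), where 49.6% of all genes were lower (median 0.004). In that comparison IL23A went the other way, with a difference of 0.22, while BC100961 differed by -0.38. The dendritic and mast cell markers ran otherwise: 2 of 3 in each list were lower with ATRA, and 2 of 3 and 3 of 3 were higher with ATRA+NIC than with ATRA. The summed intensity of the 30 leukocyte markers was 11676 in the control, 19293 with ATRA and 11092 with ATRA+NIC, mostly from LCP1. LCP1 alone had 7327, 11555 and 6646, so the sum describes mainly that 1 gene and not the markers as a set. Of these markers, 7 passed the filter and 7 were under 50 on all arrays by gene level. The counts thus rest mostly on genes below the filter. PTPRC, the pan-leukocyte marker gene, had log2 levels of 5.07, 7.24 and 4.21, under 50 in the control and with ATRA+NIC. With values under 50 set to 50, PTPRC was at least 2.91-fold higher with ATRA than in the control. All 4 of its transcripts were highest with ATRA, and 3 of them reached 50 on an array. CD3E, which passed the filter, had 7.97, 8.97 and 6.14. Of the 8 myeloid markers, 7 were higher with ATRA and 1 was lower, LYZ (6.87, 6.23 and 6.43). With ATRA+NIC against ATRA 7 were lower and LYZ was higher. Among the lower, CD14, which passed the filter, differed by only -0.06 (7.57, 8.44 and 8.38). All 13 keratinocyte markers passed the filter on these arrays, among them KRT5 at 14.86, 13.29 and 13.29 and TP63 at 12.04, 12.53 and 11.10. With ATRA, KRT15 (12.91, 13.96 and 13.99) and KRT17 (7.62, 8.63 and 7.97) were at least 2-fold higher than in the control. KRT5 was the 1 keratinocyte marker lower by as much, beside 3.83% higher and 2.06% lower among genes above the filter. The part of leukocyte RNA or of array background in the IL23A and IL15 differences was not tested. In bulk RNA, a change in the number of cells of a type and a change in RNA per cell cannot be told apart.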

How the data were processed

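RNA of HaCaT cells was measured on 3 single-colour NimbleGen arrays, 1 per group. The authors deposited, per the file headers, an RMA intensity for each of 45033 transcripts on a linear scale, each member transcript read by 3 probes; RMA removes background, makes arrays comparable and combines probes. The software was not given in the sources used here. Their value table was checked to hold the same intensities for the 31275 transcripts of at least 50 on all arrays. A column headed as a standard error was not used.

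Values were taken as log2 without further scaling. Names were those of the files, updated by Entrez number from a GRCh38.p14 RefSeq table, where 20230 of 23619 numbers matched; 2086 transcripts without a gene name were left out. Gene coordinates are hg18, per the file headers. A gene's level was the mean over its transcripts, 12467 genes passed the filter, and a difference of 2-fold or more was counted. The fold against a value under 50 was taken with that value set to 50 and written "at least". There was no test. The counting code was tested on simulated data whose noise was smaller than the transcript scatter, so that says nothing of false calls here. Named genes were all members, the genes of the receptor, ligand and signalling lists at least 2-fold different above the filter or greatest in difference, receptors and partners, and the 3 genes nearest to a member above the filter that differed 2-fold in the first or second comparison; other receptors, ligands and markers were named for completeness after their values were seen. The members and lists were chosen with earlier results of these data known. Python 3.11.15, numpy 2.4.6 and pandas 2.3.3 were used. Other gene levels, offsets, floors, scalings, filters and the value table were tried as alternatives.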

Additional observations from a re-analysis of the deposited data

How the results depend on the processing

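No paired analysis was possible because each group has 1 array. Of 168 member differences recomputed under 6 alternatives, 148 moved by less than the SD between transcripts of a gene, 20 moved by more, and 11 changed sign, none of them a difference of at least 2-fold in a member above the filter. Centring the arrays on their medians moved none of 30, and shifted the median gene by -0.0037 to 0.021. The 20 lay in CSF3, IL12A, IL15, IL23A, IL24 and TSLP. With an offset of 100, IL23A stood at 1.11 and -1.01 in the first and second comparisons.

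Members at least 2-fold higher for ATRA against control, 1 in the main setting, numbered 2 without the filter and 0 with the brightest transcript, the value table, the 75th percentile filter or NM transcripts alone, an alternative chosen after seeing the data. Members lower for ATRA+NIC against ATRA, also 1, numbered 0 under those 4 settings. In those settings the filter value was higher and IL23A lay below it; its own differences were 1.98 and -1.60 with the brightest transcript and 1.72 and -1.66 with the NM transcript. Members higher for ATRA+NIC against control, 1, numbered 3 without the filter and 0 with the offset or the 75th percentile filter.

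Over all genes, the counts higher and lower were 997 and 759 in the first comparison, 728 and 973 in the second, and 548 and 491 in the third without the filter, and 234 and 74, 48 and 221, and 44 and 48 with the 75th percentile filter. The main counts were 477 and 257, 168 and 466, and 128 and 121. With the offset, 130 were lower in the first comparison, 75 higher in the second, and 74 higher and 69 lower in the third. With the value table, 125 were lower in the first, 89 higher and 310 lower in the second, and 72 higher and 75 lower in the third. Signal over background limits the members: 9 of 24 transcripts never reached 50, so changes there could not be seen.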

Other observations

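Genes that act downstream of these cytokines also differed between the arrays. Of 16 JAK, STAT and feedback genes, 13 passed the filter, 4 of them at least 2-fold higher with ATRA than in the control and 0 lower, beside 3.83% and 2.06% of all genes above the filter. SOCS1, SOCS3 and STAT5A passed only through their ATRA level, so this count is a description. These were SOCS1 (a log2 level of 5.58 in the control, 8.60 with ATRA and 6.37 with ATRA+NIC, the order used below), SOCS3 (7.71, 10.11 and 7.72), which encode feedback inhibitors of cytokine receptors, the kinase gene PIM1 (10.65, 12.06 and 10.80) and STAT5A (6.91, 8.17 and 7.60), a transducer of CSF2 and interleukin 15 signals. With ATRA+NIC against ATRA 4 were lower and 0 higher, beside 3.74% and 1.35%: SOCS1, SOCS3, PIM1 and CISH, another feedback inhibitor gene, at 8.00, 8.05 and 6.96. This count is likewise a description, since SOCS1 and SOCS3 entered it through their ATRA level. Over all genes without the filter the shares were 4.12% lower and 3.09% higher. STAT3 (12.75, 13.03 and 12.87) and JAK1 (11.28, 11.89 and 11.46) differed less. The list medians were 0.05 and -0.31, beside -0.04 and 0.05 over all genes above the filter.

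Messages of many cytokines, CSF2 among them, carry AU-rich elements that bind proteins governing their decay. All 7 genes listed for such proteins and related decay factors passed the filter, 2 of them at least 2-fold higher with ATRA and 0 lower, beside the same 3.83% and 2.06%: ZFP36, which encodes the decay factor tristetraprolin (9.80, 12.28 and 9.60), and ZC3H12A, the gene of a ribonuclease of inflammatory messages (9.69, 10.77 and 9.84). ZFP36 and ZFP36L1 (12.77, 12.97 and 11.88) were at least 2-fold lower with ATRA+NIC than with ATRA and 0 higher, beside 3.74% and 1.35% of genes. Against the control, ZFP36 differed by -0.20 with ATRA+NIC and ZFP36L1 by -0.89. ELAVL1, whose product stabilises such messages, had 10.29, 10.04 and 10.04. Of 18 genes of transcription factors known at cytokine promoters, 16 passed the filter; 10 were higher with ATRA by 2-fold or more and 0 lower, beside 3.83% and 2.06% of genes. With ATRA+NIC against ATRA 8 were lower by as much and 0 higher, beside 3.74% and 1.35%. AP-1 genes led both counts: FOS (7.72, 12.09 and 7.37), FOSB (9.97, 13.36 and 8.90), JUN (8.34, 10.72 and 6.74) and FOSL1 (13.38, 15.25 and 12.96), with FOSL2, JUNB and JUND also higher with ATRA by 2.24-fold to 2.36-fold. FOS passed only through its ATRA level, so both counts are descriptions. ETS2 (9.79, 10.51 and 9.13) was among the lower with ATRA+NIC. RELB (10.01, 11.13 and 10.14), NFKB2 (11.85, 13.00 and 12.12) and CEBPB (11.51, 12.81 and 11.33) were among the higher, while NFKB1 (12.57, 12.50 and 12.52) was level.

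Of the related ligands below the filter, IL22, read by a single transcript, had log2 levels of 7.07, 6.02 and 6.91. IL9 had 4.50, 6.01 and 5.44. Its control and ATRA+NIC levels were under 50, and its fold for ATRA against control was 1.29 with such values set to 50.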
